A study of Mus musculus with 2 samples.

Results

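Imprinted genes were examined in mesenchymal stem/progenitor cells (MSPC) of mouse bone marrow, which are stromal cells with the potential to make bone, cartilage or fat. The set held 41 genes at 18 imprinted loci, chosen by name and grouped by locus. They were picked because Peg3 and other imprinted genes were already known to be lower in the mutant library of this same comparison, so their ratios are given as a description and support nothing by themselves. Of the 41 genes, 39 were matched to a row among the 35275 gene identifiers of the count table. Snrpn and Peg13 had no matching row and were not analysed here.

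Polyadenylated RNA was sequenced from MSPC sorted from the marrow of C57BL/6 mice as CD45-, Ter-119-, CD31-, CD140+ and Sca-1+ cells. The control group was Ptpn11+/+ (1 library) and the mutant group Ptpn11E76K/+ (1 library), and the mice of both groups carried Nestin-Cre, a transgene that drives Cre recombinase from the promoter or enhancer of the nestin gene. SHP2, the tyrosine phosphatase made from Ptpn11, promotes signalling through RAS and ERK, and Ptpn11E76K is an activating allele of it. How old the mice were and how many stand behind a library is not stated in the labels. With 1 library per genotype there is no replicate check, no test between genotypes was run, and every difference below is one between these 2 libraries.

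The total was 22328659 counts for the control library and 18010963 for the mutant. Levels are given in CPM, that is counts relative to the scaled library total, and counts are unscaled and in the order control, mutant. The gene Ptpn11 had 5958 and 5039 counts, but a gene-level count does not tell its alleles apart and checks no label. Of the genes behind the sort, Pdgfra (CD140a) had 2073 and 1792 counts, Ly6a (Sca-1) 2177 and 612, Ptprc (CD45) 1 and 12, and Pecam1 (CD31) 5 and 2. Of 14 MSPC and fibroblast genes, 14 were detected in each library and 13 measured, with 3 called lower in the mutant and 3 higher. By the rule given below, 8.29% of all 13142 measured genes were called lower and 6.98% higher. The stromal genes Ly6a, Cxcl12 and Prrx1 were 2.67-fold, 3.39-fold and 2.75-fold lower, and Nes, Thy1 and Cd44 were 2.76-fold, 2.57-fold and 3.39-fold higher. Among 16 haematopoietic markers, 11 of the 14 with enough counts were called higher in the mutant library, and the summed level of the 16 was 14.6 CPM in the control against 69.2 CPM in the mutant. In the control 6 of the 16 were at 0, among them Itgam and Tyrobp, and in the mutant 0. The part of these differences in the values below was not tested.

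Imprinted genes are transcribed mainly from the copy inherited from 1 parent. DNA methylation laid down in the egg or sperm marks only 1 parental copy at a control region of the locus. They lie in clusters that often hold a long non-coding RNA expressed from the opposite parental copy to the protein-coding genes around it. Many of them regulate growth before birth, and a number of them, such as Igf2, H19, Dlk1, Cdkn1c, Peg3, Plagl1, Mest and Grb10, are known to be abundant in embryonic tissue and to decline after birth. These counts add up both parental copies of an inbred strain, so they give the level of a gene and not which allele it came from.

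To show what lies at the starts of genes that differed, the 250 bases before the start are printed below for 5 of the 7 genes called lower. H19 and Cdkn1c, also called lower, had no such window. Printed beside the 5 are Peg12, which was not called, and Usp29, which had 0 counts in both libraries and was not measured. The sequences are from RefSeq (GRCm38.p6), which held such a window for 32 of the 41 genes, while the submitters' processing notes name mm9 for the counts. Each runs 5′ to 3′ on the gene's own strand, and capitals mark the dinucleotide CG, where DNA methylation is found. Peg3 (chr7:6730420-6730669, minus strand) and Usp29 (chr7:6730333-6730582, plus strand) point away from each other, with 163 bases and 5 CG between their starts, so the last 163 bases of these windows are the same DNA read on opposite strands.
Peg3: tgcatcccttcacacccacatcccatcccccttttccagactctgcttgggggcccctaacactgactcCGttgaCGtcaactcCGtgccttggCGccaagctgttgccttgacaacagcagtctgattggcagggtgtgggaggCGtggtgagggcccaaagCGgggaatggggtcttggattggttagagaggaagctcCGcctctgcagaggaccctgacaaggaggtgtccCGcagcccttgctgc
Usp29: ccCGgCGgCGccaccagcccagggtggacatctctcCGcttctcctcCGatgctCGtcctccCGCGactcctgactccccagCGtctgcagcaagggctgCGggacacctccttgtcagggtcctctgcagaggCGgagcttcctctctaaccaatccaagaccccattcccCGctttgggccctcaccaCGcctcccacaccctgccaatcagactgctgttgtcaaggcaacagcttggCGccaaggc
Dlk1 (chr12:109452573-109452822, plus strand) and Ndn (chr7:62348027-62348276, plus strand) were both called lower. Peg12 (chr7:62464511-62464760, minus strand) lies at the same locus as Ndn and was not called.
Dlk1: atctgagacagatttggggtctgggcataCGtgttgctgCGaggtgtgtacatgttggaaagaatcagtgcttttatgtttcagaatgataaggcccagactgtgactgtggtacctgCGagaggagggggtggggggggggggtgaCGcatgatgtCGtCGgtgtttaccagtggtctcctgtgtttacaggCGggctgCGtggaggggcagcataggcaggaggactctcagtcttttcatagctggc
Ndn: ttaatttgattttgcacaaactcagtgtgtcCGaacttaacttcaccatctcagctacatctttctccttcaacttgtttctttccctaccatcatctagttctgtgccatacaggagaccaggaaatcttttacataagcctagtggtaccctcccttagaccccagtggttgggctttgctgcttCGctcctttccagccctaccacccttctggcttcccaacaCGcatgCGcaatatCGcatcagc
Peg12: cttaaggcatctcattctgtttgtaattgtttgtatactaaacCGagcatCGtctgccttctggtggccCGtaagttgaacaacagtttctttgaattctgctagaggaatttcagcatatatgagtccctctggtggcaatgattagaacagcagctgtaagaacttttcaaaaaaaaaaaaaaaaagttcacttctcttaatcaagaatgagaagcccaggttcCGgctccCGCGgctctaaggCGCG
Plagl1 (chr10:13090582-13090831, plus strand) and Igf2r (chr17:12769707-12769956, minus strand) were called lower and hold more CG.
Plagl1: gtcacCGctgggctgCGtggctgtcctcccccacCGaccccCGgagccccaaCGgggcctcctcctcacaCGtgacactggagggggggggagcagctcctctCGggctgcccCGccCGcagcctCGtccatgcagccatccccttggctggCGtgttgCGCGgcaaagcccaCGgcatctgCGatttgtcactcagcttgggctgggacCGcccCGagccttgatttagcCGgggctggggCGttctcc
Igf2r: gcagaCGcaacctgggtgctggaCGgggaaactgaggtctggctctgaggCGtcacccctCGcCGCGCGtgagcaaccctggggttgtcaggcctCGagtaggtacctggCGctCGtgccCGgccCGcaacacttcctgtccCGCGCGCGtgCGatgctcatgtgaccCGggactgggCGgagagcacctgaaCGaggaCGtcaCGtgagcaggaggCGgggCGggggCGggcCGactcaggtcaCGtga

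The number of CG in these windows ran from 5 in Ndn over 8 in Peg3, Dlk1 and Peg12 and 14 in Usp29 to 19 in Plagl1 and 27 in Igf2r. Over 5 windows of 5 genes called lower the median was 8, over 22 windows of 13 measured genes that were not called it was 11, and over all 32851 windows of the table it was 6. The letters TGCCGC, the core of the site known for the imprint-guarding protein ZFP57, were searched on both strands. They stood in a window of 7 of the 32 genes (Plagl1, Meg3, Mest, Copg2, Nap1l5, Zim1 and Zdbf2), or 21.9%, against 9.84% of all 27025 genes with a window. The 32 genes had 50 windows with a median of 9 CG, against 32851 windows with a median of 6 for all genes. The shares are therefore not like for like. The match in Plagl1 begins 90 bases before the start, and Peg3, Usp29, Dlk1, Ndn, Peg12 and Igf2r had none of these letters in the windows printed. A match is only a stretch of letters and no measured site.

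Of the 39 genes, 24 at 15 loci had at least 20 counts over both libraries and are called measured. A further 11 were detected below that minimum and 4 had 0 counts in both libraries. A measured gene was called lower or higher when its whole 95% counting interval (exact Clopper-Pearson, computed on how its counts divide between the libraries) lay beyond 2-fold. By this rule 7 genes at 7 loci were called lower, 0 higher and 17 were not called. Over all 13142 measured genes 8.29% were called lower and 6.98% higher. With totals computed without the 100 most abundant genes, 35.6% of all calls were higher, against 45.7% with the scaling used here. The members were picked on this contrast, so nothing is read from the excess.

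Of the 24 measured genes, 21 had a ratio below 1 and 17 a whole interval below 1, where 49.9% and 37.4% of all measured genes did. A whole interval above 1 was found for 0 of the 24 and for 39.6% of all measured genes. Kcnq1ot1, Gnas and Ube3a were the members whose ratio crossed 1 under another scaling or with trends by length and GC content removed. The median log2 ratio of the 24 measured genes was -0.93, beside 0.006 over all measured genes. Of the 24, 5 had fewer than 20 counts in the mutant library alone and 0 in the control alone, so these 5 (Igf2, Cdkn1c, Peg3, Mest and Airn) passed the minimum through the control. The genes called lower were Peg3, Dlk1, H19, Cdkn1c, Ndn, Plagl1 and Igf2r, and the next sections take them locus by locus. In bulk RNA fewer cells that express a gene and less RNA per cell cannot be told apart.

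**Figure D1:**
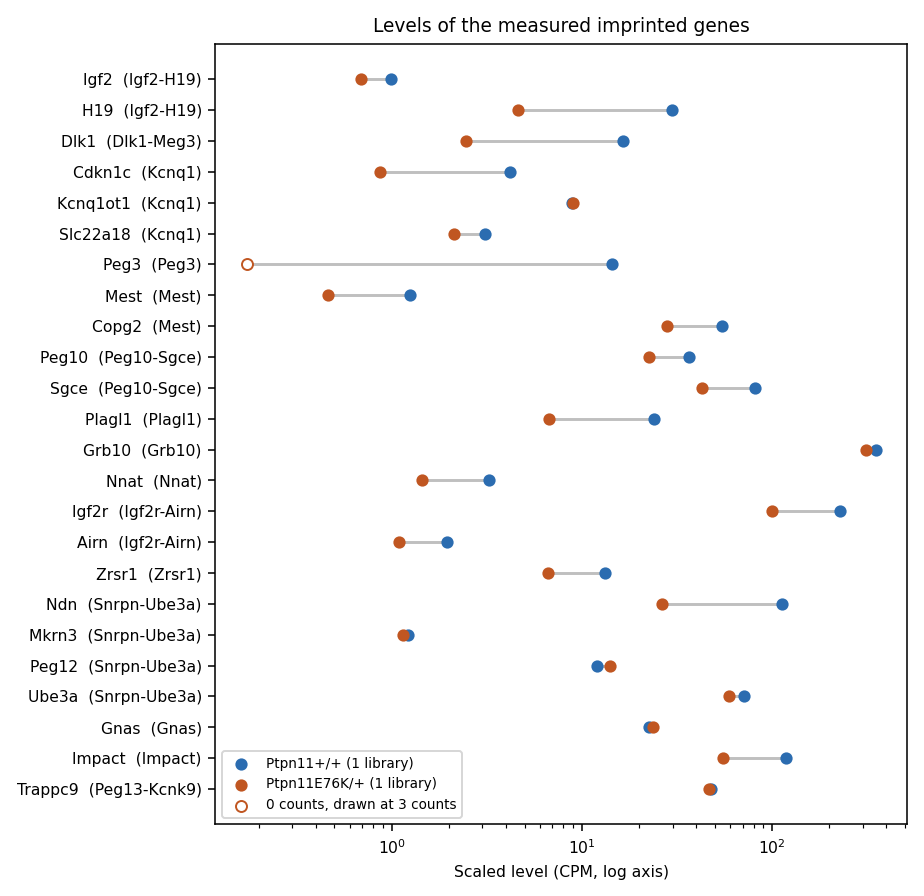
Scaled level of each measured imprinted gene in the control library (blue) and the mutant library (orange), in CPM on a log axis, with 1 library per genotype and the locus in brackets. The open circle marks Peg3, at 0 counts in the mutant and drawn at 3 counts (0.173 CPM). For Peg12, which was not called, the orange point lies slightly to the right of the blue (12.06 CPM in the control, 14.03 in the mutant). The points of Kcnq1ot1, Gnas and Trappc9 nearly coincide.

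At the Peg3 locus only Peg3 itself was detected among the members. Peg3, which encodes a large zinc finger protein expressed from the paternal copy, had 335 control counts (14.5 CPM) and 0 mutant counts. At a floor of 3 counts in the mutant library (0.173 CPM) this is at least 83.95-fold lower. The exact 95% interval gives a smaller bound, 67.9-fold lower. Peg3 was among the members whose reads may be shared with another gene. Usp29, a ubiquitin-specific protease family gene that starts 163 bases from Peg3 on the other strand, had 0 counts in both libraries. Zim1, a maternally expressed zinc finger gene of the locus, also had 0 in both. The 2 measured neighbours were present in both libraries. Counts were 2382 and 1449 for the chloride transporter gene Clcn4 and 208 and 80 for the zinc finger gene Zfp772. Neither was called, but the whole interval of each lay below 1. The mutant over control ratio was 0.8092 (0.7575 to 0.8641) for Clcn4 and 0.5116 (0.3903 to 0.6652) for Zfp772. Aurkc, a further neighbour, was below the minimum (0 and 1 counts). Peg3 was thus at 0 in the mutant library, while its 2 measured neighbours kept counts there at a smaller scaled level.

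At the Igf2-H19 locus the non-coding RNA and the growth factor were far apart in level. H19, a maternally expressed long non-coding RNA, had 687 and 80 counts (29.7 and 4.60 CPM), a 6.46-fold lower level in the mutant (5.12 to 8.24). Igf2, the paternally expressed growth factor of the pair, had only 23 and 12 counts (0.994 and 0.690 CPM). Its ratio, 1.44-fold lower with an interval of 0.688 to 3.18, was not detectable as a difference at this depth. Counted per length, H19 stood at 12.99 CPM per kilobase of transcript in the control and 2.01 in the mutant, and Igf2 at 0.211 and 0.146.

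Of 5 measured neighbours within 1.5 Mb, 2 were called lower and 0 higher. The actin-binding protein gene Lsp1 (1343 and 254 counts) was called lower, by a ratio of 3.97 (3.47 to 4.56). So was the troponin gene Tnnt3 (74 and 5 counts), by a ratio of 11.1 (4.56 to 35.3). Syt8 (28 and 10 counts), the cathepsin D gene Ctsd (24996 and 10737) and the mitochondrial ribosomal gene Mrpl23 (626 and 611, a mutant over control ratio of 1.30) were not called.

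The receptor that clears IGF2 was among the abundant members. Igf2r, which takes up IGF2 and carries lysosomal enzymes, had 5284 and 1750 counts (228.5 and 100.6 CPM). It was 2.27-fold lower (2.15 to 2.40), but 1.79-fold lower and not called when the trends of the ratio over transcript length and GC content were removed. Airn, the non-coding RNA that overlaps Igf2r on the other strand and silences the paternal copy in cis, had 45 and 19 counts, a ratio of 1.78-fold lower (1.02 to 3.22). Reads of the 2 genes may be shared, since the strand setting of the counting is not given. So both RNAs of this antisense pair had the smaller scaled level in the mutant library, Igf2r by far more counts. Of their 5 measured neighbours 0 were called lower, and the chaperonin subunit gene Tcp1 had 4316 and 7003 counts and was called higher (2.16-fold, 2.08 to 2.24).

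Grb10, the adaptor gene that dampens signalling from the insulin and IGF1 receptors, was the most abundant member. It had 8125 and 5430 counts (351 and 312 CPM) and was first per length in both libraries, with 69.4 and 61.7 CPM per kilobase. Its ratio was 1.12-fold lower (1.09 to 1.16) and not called. In a list of 13 genes that handle IGF2 (IGF1, receptors, binding proteins and IGF2 mRNA-binding proteins), 10 were measured. The insulin receptor gene Insr (1424 and 441 counts) was called lower, 2.43-fold (2.18 to 2.71), and the binding protein gene Igfbp2 (420 and 1226) higher, 3.88-fold (3.47 to 4.35), while Igf1r (3241 and 1630) was not called. The median log2 ratio of that list was 0.20. Over all measured genes 8.29% were called lower and 6.98% higher, beside 1 and 1 of these 10.

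At the Dlk1-Meg3 locus the protein-coding gene Dlk1 carried nearly all counts. Dlk1, a paternally expressed transmembrane protein that restrains adipocyte formation, had 381 control counts and 43 mutant counts (16.5 and 2.47 CPM). It was 6.66-fold lower (4.85 to 9.36), and this interval overlaps that of H19. Of the maternally expressed non-coding RNAs, Meg3 had 10 and 0 counts, Rian, which hosts small nucleolar RNAs, 8 and 0, and Mirg, which hosts microRNAs, 7 and 5. For Meg3 and Rian the exact lower bounds were 1.69-fold and 1.28-fold lower. Rtl1, a retrotransposon-derived gene of the paternal copy, had 1 and 0. These 4 genes were below the minimum and were not called.

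Around this locus the picture differed by gene. Dio3, the imprinted gene of a thyroid hormone-inactivating deiodinase at the far end of the cluster, had 73 and 155 counts and was 2.82-fold higher in the mutant (2.13 to 3.78). The 8 neighbours outside the cluster, all measured, included 0 called in either direction, with a median log2 ratio of -0.20. Thus Dlk1 was called lower and Dio3 higher, both of which are known to be expressed mainly from the paternal copy of the same cluster.

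At the Kcnq1 locus Cdkn1c was low in the mutant library and the silencing RNA was not. Cdkn1c, the maternally expressed gene of the cyclin-dependent kinase inhibitor p57, had 97 and 15 counts (4.19 and 0.863 CPM) and was 4.86-fold lower (2.81 to 9.02). Kcnq1ot1, the paternally expressed RNA that silences its neighbours in cis, had 205 and 156 counts (8.86 and 8.97 CPM). Kcnq1ot1 was among the members whose reads may be shared with another gene. Its log2 ratio was 0.019, and it changed sign with total counts, with upper-quartile factors and without the 100 most abundant genes in the totals (lowest value -0.11), while without the length and GC trends it was 0.92. Slc22a18, an organic cation transporter family gene, had 72 and 37 counts, a ratio of 1.46-fold lower (0.971 to 2.24). Phlda2, which restrains growth of the placenta, had 1 and 0 counts, and Ascl2, a transcription factor gene, 0 and 1. Of 4 measured neighbours 0 were called lower and the decoy receptor gene Tnfrsf23 (944 and 1629 counts) was called higher, 2.29-fold (2.12 to 2.49).

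At the Snrpn-Ube3a locus 1 of 4 measured members was called lower and 0 higher. Ndn, the paternally expressed gene of necdin, a MAGE family protein that restrains cell division, had 2602 and 460 counts (112.5 and 26.5 CPM). It was 4.25-fold lower (3.85 to 4.71). Its level per length was the third highest of the members in the control (30.45) and rank 6 in the mutant (7.16). Peg12, a FRAT family gene also expressed from the paternal copy, had 279 and 244 counts, with a mutant over control log2 ratio of 0.22, and was not called. As mutant over control ratios, the intervals of Ndn (0.2125 to 0.2598) and Peg12 (0.9756 to 1.386) did not overlap, although both genes lie in the same paternally expressed stretch. Reads of Peg12 could be shared with its relatives Frat1 (3 and 3 counts) and Frat2 (136 and 95).

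Mkrn3, a makorin ring finger gene, had 28 and 20 counts, a ratio of 1.05-fold lower (0.572 to 1.97). Magel2, another MAGE family gene, had 1 count in each library. Ube3a, the ubiquitin ligase gene that is imprinted in neurons, had 1640 and 1032 counts, 1.19-fold lower (1.11 to 1.29), and its log2 ratio of -0.26 was 0.46 without the length and GC trends. The long transcript Snhg14, which overlaps Ube3a and Snrpn, had 442 and 323 counts and was not called. Atp10a, which lies beyond Ube3a and is imprinted only in some tissues, had 479 and 1367 counts and was 3.80-fold higher (3.42 to 4.22). Ndn was thus the member called at this locus, and Atp10a, no member, was called in the other direction.

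Plagl1, a paternally expressed zinc finger factor also called Zac1 and known to activate other imprinted genes, had 554 and 117 counts (23.95 and 6.73 CPM). It was 3.56-fold lower in the mutant library (2.91 to 4.38). Of its 6 measured neighbours, Phactr2, an actin and phosphatase 1 regulator gene, was also called lower (1562 and 415 counts, 2.83-fold, 2.54 to 3.16) and the ribosome biogenesis gene Ltv1 higher (587 and 1096, 2.48-fold, 2.25 to 2.75).

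**Figure D2:**
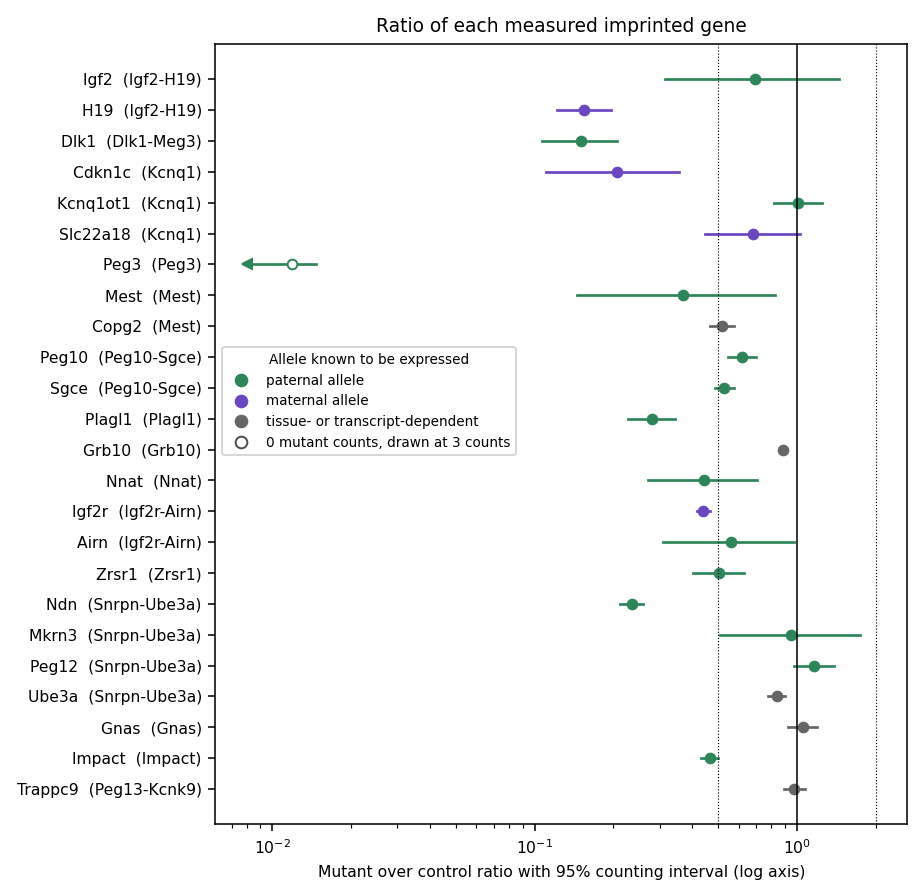
Ratio of the mutant to the control library for each measured imprinted gene with its 95% counting interval, on a log axis, coloured by the parental allele from which the gene is known to be expressed. Dotted lines stand at 2-fold; the whole intervals of Peg3, Dlk1, H19, Cdkn1c, Ndn, Plagl1 and Igf2r lie beyond the left line, and 0 lie beyond the right.

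The retrotransposon-derived gene Peg10 and its neighbour Sgce, the gene of epsilon-sarcoglycan, share a start region and are both expressed from the paternal copy. Peg10 had 843 and 393 counts (36.45 and 22.6 CPM), 1.61-fold lower (1.43 to 1.82). Sgce had 1880 and 749 counts (81.3 and 43.1 CPM), 1.89-fold lower (1.73 to 2.06). Both intervals lay below 1, and neither lay beyond 2-fold. Asb4, an ankyrin repeat and SOCS box gene of the locus, had 1 count in each library and Ppp1r9a, the gene of neurabin, 0 in both. The collagen gene Col1a2 close to this locus had 42729 and 62322 counts, a ratio of 1.94, so the most abundant neighbour lay on the other side of 1.

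At the Mest locus, Mest, a paternally expressed gene of an endoplasmic reticulum protein, had 29 and 8 counts (1.25 and 0.460 CPM), 2.72-fold lower with a wide interval (1.22 to 6.90). Copg2, the coatomer gene that overlaps the end of Mest, had 1257 and 490 counts (54.35 and 28.2 CPM), 1.93-fold lower (1.74 to 2.15). Reads in the overlap may be shared between them. Both intervals lay below 1 and neither gene was called, nor was any of the 4 measured neighbours.

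Among loci with a lone measured member, Impact, whose protein inhibits the stress kinase GCN2, had 2739 and 959 counts (118 and 55.15 CPM). It was 2.15-fold lower, and its interval (1.99 to 2.31) just missed the threshold, which it passed with total counts, with upper-quartile factors and without the 100 most abundant genes in the totals. Zrsr1, a paternally expressed retrocopy of a splicing factor gene, had 306 and 116 counts, 1.98-fold lower (1.60 to 2.48). Its parent gene Zrsr2 had 1702 and 939 counts, 1.36-fold lower (1.26 to 1.48), its host gene Commd1 197 and 115, and reads may be shared among the 3 genes. Nnat, the gene of neuronatin, had 75 and 25 counts, 2.25-fold lower (1.42 to 3.70), while Blcap, in whose intron it lies, had 755 and 599 counts and a log2 ratio of 0.078.

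Trappc9, the gene of a vesicle tethering complex subunit, had 1103 and 811 counts (47.7 and 46.6 CPM), a ratio of 1.02-fold lower (0.933 to 1.12). Gnas, the gene of the stimulatory G protein alpha subunit, had 521 and 412 counts (22.5 and 23.7 CPM) with a log2 ratio of 0.073, which changed sign with total counts and without the 100 most abundant genes in the totals (lowest value -0.05). Neither was called. Gnas produces transcripts from several start sites with different imprints, and a gene-level count adds them up.

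The remaining members had few counts. Nap1l5, a retrogene of the nucleosome assembly protein family inside Herc3, had 6 and 1 counts, whereas Herc3 itself had 143 and 717 and was 6.67-fold higher in the mutant (5.57 to 8.04). Slc38a4, an amino acid transporter gene, had 1 and 7, Zdbf2, a zinc finger gene, 1 and 0, and the potassium channel gene Kcnk9 0 in both. Slc38a4 and Ascl2 were the members below the minimum with more counts in the mutant library. For Slc38a4 the exact lower bound was 1.196-fold higher. In all, 6 members were at 0 in the mutant but not in the control (Peg3, Meg3, Rian, Rtl1, Phlda2 and Zdbf2) and 1 at 0 in the control only (Ascl2).

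By the allele known to be expressed, the members called lower came from both parents. Of 15 measured genes of the paternal copy 4 were called lower (Peg3, Dlk1, Plagl1, Ndn), with a median log2 ratio of -0.98. Of 4 measured genes of the maternal copy 3 were called lower (H19, Cdkn1c, Igf2r), with a median of -1.71. Of 5 whose imprint depends on tissue or transcript (Copg2, Grb10, Ube3a, Gnas, Trappc9) 0 were called, with a median of -0.17. As a background to these classes, all measured genes had a median of 0.006, and 8.29% of them were called lower. The classes are small, hold members picked as lower and were not compared by a test. Of the 3 measured non-coding RNAs, H19 was called lower and Kcnq1ot1 and Airn were not called.

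Summed over the 39 genes, the level was 1260 CPM for control against 770.3 CPM for mutant, and Grb10 alone made up 351 and 312 CPM of these sums. Per length, Grb10 and Impact held ranks 1 and 2 in both libraries. Trappc9 had rank 8 in the control (10.5 CPM per kilobase) and rank 4 in the mutant (10.3), and H19 rank 7 and rank 12. Trappc9 thus moved up in the order with nearly the same level in both libraries.

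Other imprinted genes that are no members were read from a list of 42, of which 40 were matched and 27 measured. Of these 2 were called lower and 3 higher, 22 were not called, and the median log2 ratio was 0.08. The 2 called lower were 7.41% of the 27, beside 8.29% of all measured genes, of which 6.98% were called higher. The small matrix proteoglycan gene Dcn, imprinted in the placenta, was called lower (18370 and 2472 counts, 5.59-fold, 5.36 to 5.83), as was Adam23 beside Zdbf2 (205 and 36 counts, 4.28-fold, 2.99 to 6.28). Higher were Atp10a and Dio3, given above, and the AMP deaminase gene Ampd3 (546 and 1277 counts, 3.11-fold, 2.81 to 3.45). Many genes of this list are imprinted only in the placenta or brain. The members were picked as lower and this list was not, so the difference between their medians is no test.

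Genes beside the loci gave 72 measured of 90 in the table, with 6 called lower and 6 higher and a median log2 ratio of 0.22. Over all measured genes 8.29% were called lower and 6.98% higher, and the lower share of these neighbours, 8.33%, was close to that. Besides Lsp1, Tnnt3 and Phactr2, those called lower were Zpbp beside Grb10 (69 and 7 counts), Fam161a beside Zrsr1 (143 and 30) and Fam13a beside Nap1l5 (54 and 6). Besides Tnfrsf23, Tcp1, Ltv1 and Herc3, those called higher were the amino acid transporter gene Slc38a1 (264 and 888) and the collagen gene Col22a1 (2 and 62). At Dlk1-Meg3, Kcnq1, Peg3 and Igf2r-Airn, where a member was called lower, 0 of the neighbours were called lower, and at Igf2-H19 and Plagl1 some were. Neighbours that are also in the list of other imprinted genes, such as Atp10a, were counted only there.

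**Figure D3:**
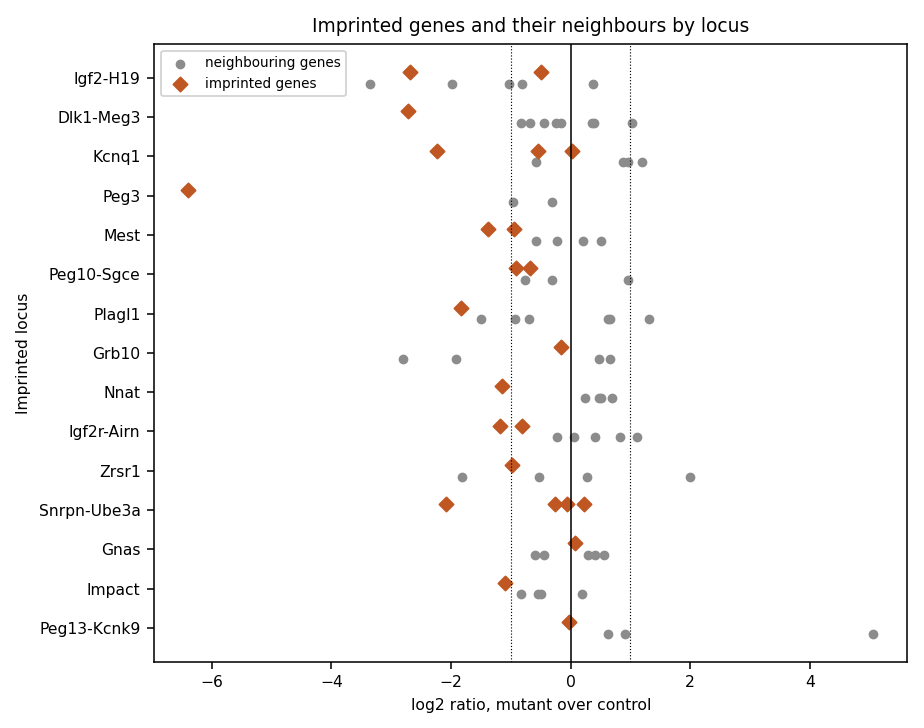
log2 ratio of the mutant to the control library for the measured imprinted genes (diamonds) and the measured genes within 1.5 Mb of them (grey circles), by locus; dotted lines stand at 2-fold. Peg3, at 0 counts in the mutant, is drawn at the floor of 3 counts, and 1 neighbour at Igf2-H19, Tnnt3, lies farther left than the imprinted genes there.

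Genes that write, erase or guard the methylation marks went both ways, with 3 of 21 measured called lower, 1 higher and a median log2 ratio of -0.05. The 3 called lower were 14.3% of the 21, beside 8.29% of all measured genes, of which 6.98% were called higher. The imprint-guarding zinc finger gene Zfp57 had 142 and 367 counts (3.44-fold higher, 2.83 to 4.20) and its counterpart Zfp445 964 and 265 (2.73-fold lower, 2.39 to 3.15). The 5-methylcytosine oxidase genes Tet1 (121 and 6) and Tet2 (715 and 200) were called lower. Dnmt1, the maintenance methyltransferase gene, had 4489 and 6413 counts. It was 1.9-fold higher (1.829 to 1.975), an interval above 1 but not beyond 2-fold, and was not called. Of the 21, 9 had a whole interval below 1 and 8 above 1.

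**Figure D4:**
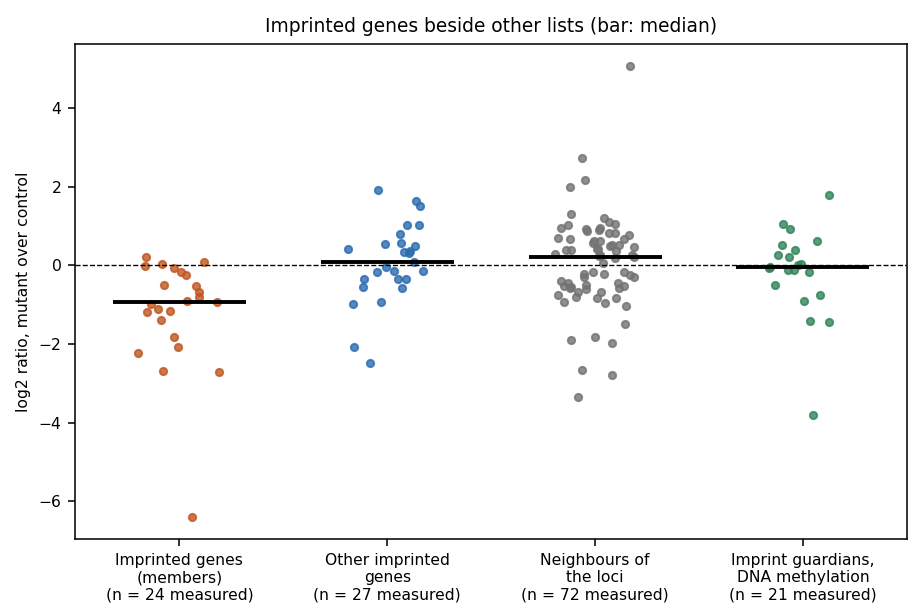
log2 ratio of the mutant to the control library for measured genes of 4 lists; each point is a gene, the bar is the list's median and the dashed line the median over all measured genes. The medians are -0.93 for the imprinted genes, which were picked as lower, 0.08 for other imprinted genes, 0.22 for neighbours of the loci and -0.05 for genes of DNA methylation and imprint guarding.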

How the data were processed

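RNA of sorted MSPC was measured in 1 library per genotype. The authors deposited raw read counts (whole numbers) for 35275 Ensembl genes. The submitters' processing notes name CASAVA, TopHat, edgeR and mm9 but no versions or roles. The counter, its annotation and strand setting and any pooling of mice are not stated there. The table has 1 column per genotype, although the design text mentions 2 replicates. Symbols were found for 34490 identifiers in the supplied name table, and transcript length and GC content came from the longest transcript of GENCODE M21.

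TMM factors (1.036 for control, 0.965 for mutant) came from edgeR 4.0.16 in R 4.3.3. Each ratio has an exact 95% interval (Clopper-Pearson, SciPy 1.17.1) that covers counting error only. log2 ratios use a prior count of 0.5 per library. Folds written as at least set a library at 0 to 3 counts (0.13 CPM for control, 0.173 CPM for mutant). No p-value was computed. In a simulated pair of libraries (13136 measured genes, 200 changed), drawn with counting noise only, the rule called 2.0% of genes at a true 2-fold change. It called 96.0% at 4-fold, 100% at 8-fold and 16-fold, and 1 unchanged gene. The pair held no variation between mice, sorts or libraries, so it gives no rate of false calls for the real libraries.

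The members and lists were chosen with earlier results of these data known. All members were named, and genes of other lists if called, if beside a member or if they may share its reads; Igf1r, Dnmt1, Mrpl23, Syt8, Ctsd, Col1a2, Clcn4, Zfp772, Snhg14 and genes of the sort were named after their values were seen. Neighbours lie within 1.5 Mb of a member in RefSeq's gene table, and those in the list of other imprinted genes were counted only there. The 6 endothelial, 6 erythroid, 12 neuronal and 8 epithelial markers summed to 0.865, 0.432, 28.45 and 0.173 CPM (control) and 1.61, 0.172, 73.15 and 39.1 CPM (mutant). The higher sums rest on F11r (4 and 675 counts) among the epithelial and on Map2 (16 and 636) and Uchl1 (4 and 349) among the neuronal markers, while Stmn2 had 59 and 0 counts. Alternatives were other scalings, minimums of counts, thresholds, interval levels and priors, removal of length and GC trends, and leaving out genes that may share reads.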

Additional observations from a re-analysis of the deposited data

How the results depend on the processing

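The number of imprinted genes called lower was 7, and 6 to 8 under other scalings (DESeq2 1.42.0 size factors included), count minimums, 99% intervals and with length and GC trends removed. It was 11 at a threshold of 1.5-fold, where 15.6% of all measured genes were called lower, and 3 at 4-fold, where 2.02% were. The number called higher was 0 in each of these. The median log2 ratio of the measured members ran from -1.06 (without the 100 most abundant genes in the totals, which moved the median of all genes to -0.12) to -0.84 (without the length and GC trends). Of 120 pairs of a gene and a scaling or trend setting, 4 changed a call: Igf2r was not called without the trends, and Impact was called lower under 3 scalings; the cause was not tested. Kcnq1ot1, Gnas and Ube3a changed sign under some settings. Without genes that may share reads 13 members were measured and 5 called lower. The called genes left out were Peg3 and Igf2r, and Kcnq1ot1, Gnas, Trappc9 and Nnat were also among those left out. No paired analysis was possible because each genotype has 1 library, which also leaves no library to leave out. Depth limits Igf2, Mest, Airn, Mkrn3 and the members under 20 counts most.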
